A study of Mus musculus with 36 samples.

Results

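The collagen chains described here are the 52 probes, for 36 genes, whose platform gene symbol has the form Col, a number, the letter a and a number. They were taken by name alone, without regard to their values, from the 23982 probes of the deposited value table, of which 19344 have a symbol, for 14739 genes. By the kind of structure the chains build, 15 probes of 10 genes belong to fibrillar collagens, 10 probes of 8 genes to collagens of the basement membrane, and 27 probes of 18 genes to other collagens. The third class holds beaded filament, fibril-associated, anchoring or short-chain network, and transmembrane chains. A single probe stands for 26 of the genes, and the other 10 genes have 26 probes between them, up to 5 for Col25a1.

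The arrays measured total RNA of spleen and liver from male BALB/c mice, all of which carried J558 myeloma cells injected under the skin at the dorsum of the neck. J558 is a mouse plasma cell tumour line. The mice drank oil palm phenolics (OPP, a water-soluble extract) at 1500 ppm gallic acid equivalents, or distilled water, as much as they wished. In each tissue the groups were OPP and water at 18 hours in mice aged 6 weeks, OPP and water at 1 week in mice aged 7 weeks, and OPP and water at 4 weeks in mice aged 10 weeks. Each of the 12 groups had 3 arrays. The study's text counts the times from inoculation, but the treatment label of every sample speaks of drinks given 4 weeks after inoculation, so what the time counts from is not settled. Time, age and time since inoculation cannot be told apart. Whether a replicate was 1 mouse or a pool is not given in the sources used here, and the p-values measure only the spread between these arrays, which may be technical.

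Collagens are proteins of 3 chains wound into a triple helix. Fibroblasts and, in the liver, stellate cells make the fibrillar types I, III and V, which form the fibres of the organ capsule, the vessel walls and the reticular network of the spleen. Type IV collagen is the sheet-forming collagen of basement membranes under endothelium, and its commonest molecule joins chains encoded by Col4a1 and Col4a2. Those 2 genes lie head to head and are transcribed in opposite directions from a shared promoter. In bulk tissue, fewer cells that make a chain and less of its RNA per cell cannot be told apart.

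The promoters of 4 chains are shown because the results turn on these genes: the shared Col4a1 and Col4a2 region, because the 2 chains moved together, and Col1a2 and Col3a1, because they were the fibrillar chains with the largest falls in spleen. RefSeq, on build GRCm38.p6, gave a window of 250 bases before and 50 bases from the start site for 29 of the 36 genes (32 windows). The Col4a1 window is chr8:11312777-11313076 on the minus strand, and the Col4a2 window is chr8:11312555-11312854 on the plus strand. They share 78 bases, and their start sites lie 21 bases apart, placed so that the annotated 5' ends of the 2 genes overlap. The Col1a2 window is chr6:4505368-4505667 and the Col3a1 window is chr1:45311288-45311587, both on the plus strand. Capitals mark matches, on either strand, to the CCAAT box (CCAAT), the TATA box (TATAAA) and the GC box (GGGCGG), which do not overlap one another here.
Col4a1: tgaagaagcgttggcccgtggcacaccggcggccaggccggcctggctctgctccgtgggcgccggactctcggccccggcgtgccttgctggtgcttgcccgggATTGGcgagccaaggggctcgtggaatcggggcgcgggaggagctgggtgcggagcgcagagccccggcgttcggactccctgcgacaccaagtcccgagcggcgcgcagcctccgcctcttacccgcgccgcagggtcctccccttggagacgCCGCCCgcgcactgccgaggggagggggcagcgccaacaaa
Col4a2: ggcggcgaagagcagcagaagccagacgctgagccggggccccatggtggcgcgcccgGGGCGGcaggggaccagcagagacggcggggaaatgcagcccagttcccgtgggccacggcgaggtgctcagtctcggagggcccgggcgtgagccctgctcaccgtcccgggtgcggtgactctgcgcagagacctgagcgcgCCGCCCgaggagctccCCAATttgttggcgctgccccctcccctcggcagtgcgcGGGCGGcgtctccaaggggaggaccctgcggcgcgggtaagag
Col1a2: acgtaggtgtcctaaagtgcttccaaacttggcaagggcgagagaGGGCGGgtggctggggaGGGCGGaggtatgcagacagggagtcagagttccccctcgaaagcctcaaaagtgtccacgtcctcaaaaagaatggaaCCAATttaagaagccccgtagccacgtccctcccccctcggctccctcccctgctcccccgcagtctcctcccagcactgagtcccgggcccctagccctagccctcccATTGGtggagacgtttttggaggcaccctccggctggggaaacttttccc
Col3a1: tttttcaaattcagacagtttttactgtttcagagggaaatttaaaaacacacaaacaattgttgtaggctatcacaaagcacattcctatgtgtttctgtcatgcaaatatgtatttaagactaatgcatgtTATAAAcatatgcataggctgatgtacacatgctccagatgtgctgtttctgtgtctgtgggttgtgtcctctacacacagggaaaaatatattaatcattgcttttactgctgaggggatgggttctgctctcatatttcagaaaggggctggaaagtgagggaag

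The Col4a1, Col4a2 and Col1a2 windows each held a CCAAT box and a GC box, and the Col3a1 window held a TATA box and neither of the others. The only GC box of the Col4a1 window is also a GC box of the Col4a2 window. It lies after both start sites and counts in both windows. CCAAT occurred in 12 of the 32 collagen windows (37.5%), against 37.4% of all 32851 windows. TATAAA occurred in 5 of 32 (15.6%), against 13.6% of all. GGGCGG occurred in 21 of 32 (65.6%), against 35.7% of all. A match describes the letters of these windows and no more.

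Each deposited value is the ratio of a probe's signal on an array to that probe's median over the 18 arrays of its tissue. A ratio of 1 is therefore the middle of the tissue's own arrays. Levels cannot be compared between probes or between tissues, and markers cannot show which tissue an array holds. The table has no detection value, so which chains were above background is not known here. Most collagen probes varied little. The median standard deviation (SD) of the log2 ratio over the 18 spleen arrays was 0.18 for fibrillar, 0.16 for basement membrane and 0.16 for other collagen probes, against 0.18 for all probes. In liver it was 0.13, 0.12 and 0.13, against 0.14 for all probes. Differences were tested on the log2 ratio with limma over all 23982 probes, and a call needs a p under 0.05 after Benjamini-Hochberg adjustment. Over the time comparisons, averaged over both drinks, 27 collagen probes were called at least once in spleen and 6 in liver, 5 of them in both tissues, and 24 in neither.

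**Figure D1:**
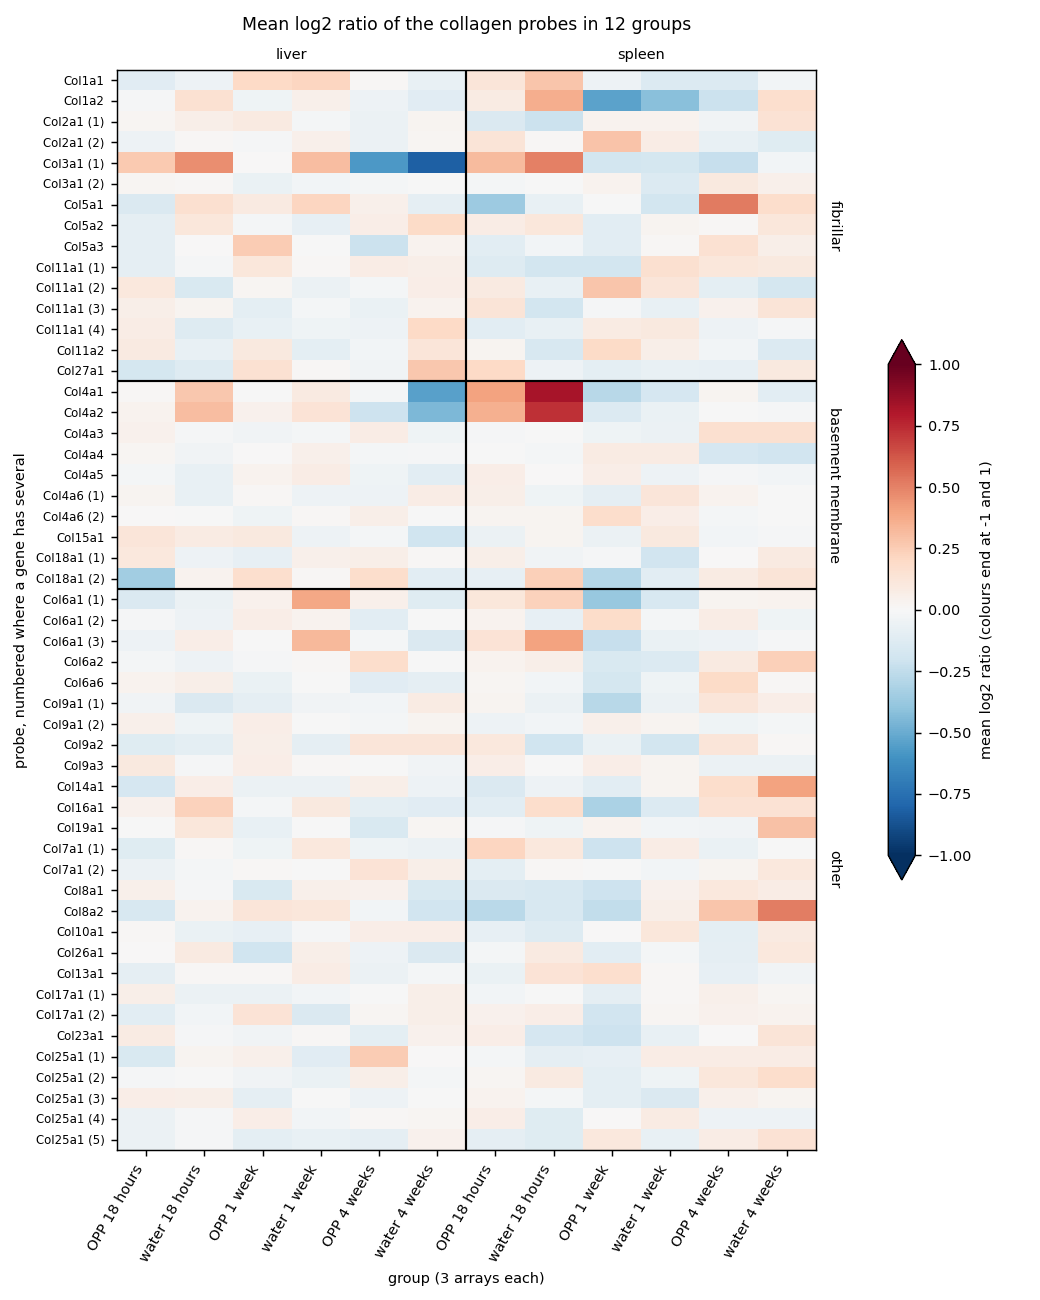
Mean log2 ratio of the 52 collagen probes (one line each, by class) in the 12 groups of 3 arrays, liver left and spleen right; red is above and blue below the probe's tissue median. The strongest colours lie in Col3a1, Col4a1 and Col4a2 in both tissues and in Col1a2, Col5a1 and Col8a2 in spleen.

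In spleen, 7 collagen probes were lower at 1 week than at 18 hours and none was higher. The 7 probes stand for 6 genes: Col1a2 and Col3a1 among the fibrillar chains, Col4a1 and Col4a2 of the basement membrane, and Col6a1 and Col16a1 among the others. They are 13.5% of the 52, where 7.92% of all probes were called in either direction, 3.75% as higher and 4.17% as lower. The median log2 difference of the 52 was -0.02, against 0.00 for all probes.

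Col1a2, which encodes a chain of type I collagen, had ratios of 0.804, 0.616 and 0.662 in OPP spleens and 0.830, 0.741 and 0.684 in water spleens at 1 week. At 18 hours it had 1.18, 1.00 and 0.998 in OPP spleens and 1.24, 1.21 and 1.41 in water spleens. Every array at 1 week lay below every array at 18 hours, and the log2 difference was -0.70 (SE 0.09, n = 6 arrays each, limma adjusted p = 0.000505), 1.62-fold lower. Col1a1, which encodes the other chain of type I collagen, had -0.29 (SE 0.09, adjusted p = 0.0531) and was not called. Its arrays ran from 0.860 to 1.04 at 1 week and from 0.996 to 1.52 at 18 hours, with an overlap between the times.

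Col3a1, which encodes the chain of type III collagen in reticular fibres, had ratios of 0.865, 0.858 and 0.917 in OPP spleens and 0.921, 0.957 and 0.788 in water spleens at 1 week. At 18 hours it had 1.17, 1.15 and 1.42 in OPP spleens and 1.41, 1.16 and 1.74 in water spleens. The 2 times did not overlap, and the log2 difference was -0.59 (SE 0.11, adjusted p = 0.00371). A further Col3a1 probe gave -0.04 (SE 0.07, adjusted p = 0.815). Over the 18 spleen arrays the log2 ratios of the 2 probes had a Pearson correlation of 0.02, so the gene's call rests on 1 probe.

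Col4a1 had ratios of 0.684, 0.985 and 0.829 in OPP spleens and 1.01, 0.920 and 0.75 in water spleens at 1 week. At 18 hours it had 1.56, 1.42 and 1.04 in OPP spleens and 1.78, 1.78 and 1.75 in water spleens. All 6 later arrays were below all 6 earlier ones, with a log2 difference of -0.84 (SE 0.11, adjusted p = 0.000475), the largest fall among the collagen probes of this comparison. Col4a2 had 0.845, 1.00 and 0.885 in OPP spleens and 1.00, 1.12 and 0.771 in water spleens at 1 week. At 18 hours it had 1.66, 1.31 and 0.959 in OPP spleens and 1.53, 1.70 and 1.75 in water spleens. Its log2 difference was -0.65 (SE 0.12, adjusted p = 0.00254), and only the third OPP array at 18 hours reached down into the range of the 1 week arrays. None of the 8 other basement membrane probes was called.

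Among the other collagens, 2 of the 3 probes of Col6a1, a chain of the beaded filaments of type VI collagen, fell by 0.44 (SE 0.08, adjusted p = 0.00228) and 0.42 (SE 0.07, adjusted p = 0.00146). The probe with the smaller fall had a lowest, median and highest ratio of 0.737, 0.926 and 0.985 at 1 week and of 1.05, 1.21 and 1.37 at 18 hours, without overlap. The third Col6a1 probe was not called, and its correlation with the other 2 over the spleen arrays was -0.56 and -0.46. Col16a1, a fibril-associated collagen, fell by 0.26 (SE 0.07, adjusted p = 0.0213), with 0.729, 0.864 and 0.974 at 1 week and 0.869, 1.03 and 1.19 at 18 hours, and was not called in a fit of the compared arrays alone (adjusted p = 0.0542).

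**Figure D2:**
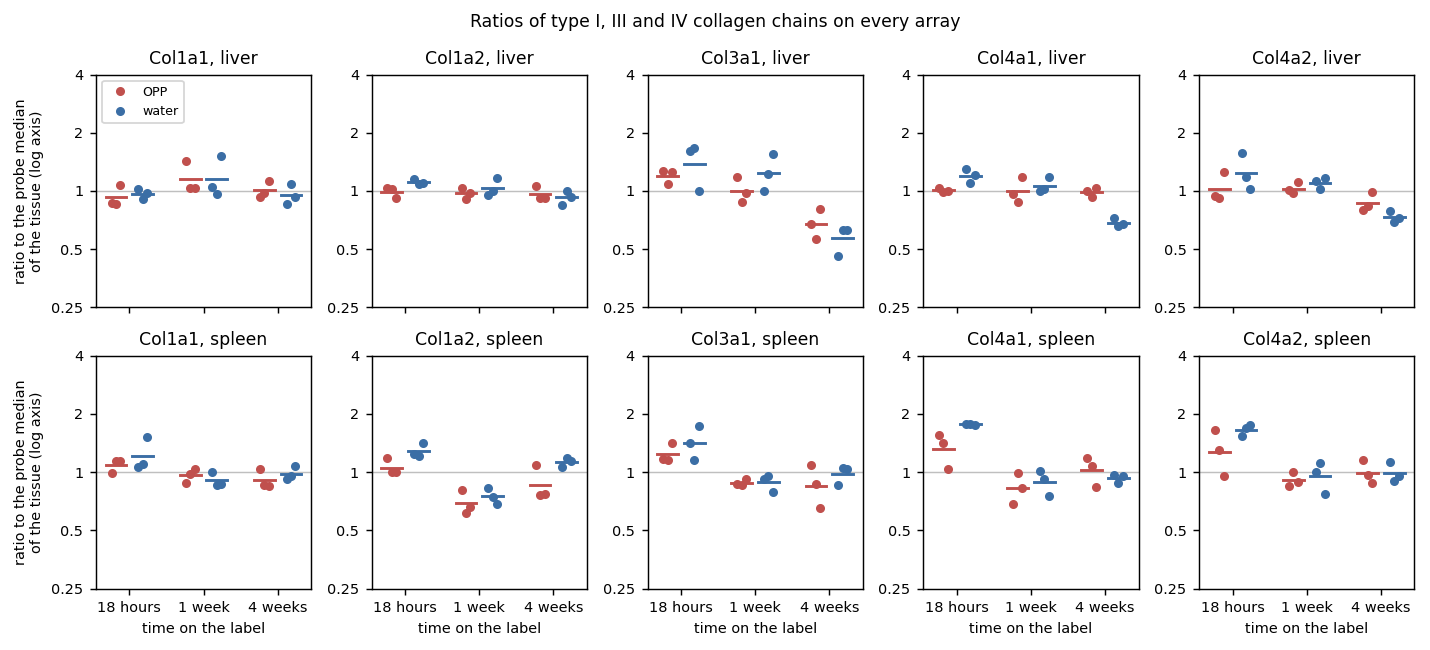
Ratio of each array to the probe's tissue median (log axis, 0.25 to 4) for type I, III and IV chains, by time on the horizontal axis and drink by colour, each point 1 array. In spleen every 1 week array of Col1a2, Col3a1 and Col4a1 lies below every 18 hour array; in liver the 4 week arrays of Col3a1 lie lowest.

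Within each drink, 3 arrays against 3, the falls had the same sign. Col4a1 had a log2 difference of -0.68 in OPP spleens (adjusted p = 0.0237) and -1.0 in water spleens (adjusted p = 0.0144). Col1a2 had -0.62 (adjusted p = 0.0194) in OPP spleens and -0.78 (adjusted p = 0.0149) in water spleens. Col4a2 had -0.49 in OPP spleens, which was not called (adjusted p = 0.0959), and -0.80 in water spleens (adjusted p = 0.0315). Col3a1 had -0.50 and -0.68 in OPP and water spleens, and neither was called alone (adjusted p = 0.0829 and 0.0580). Whether the OPP effect differed between times was tested directly, as given with the OPP comparisons.

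Spleen arrays on which markers of other tissues stood apart took part in this comparison. Hepatocyte markers stood apart, with a median log2 ratio of 1.24 and 1.29 on water replicates 2 and 3 at 18 hours and of 0.92 on the first OPP array at 1 week, against -0.23 to 0.22 on the other spleen arrays. Without these 3 arrays, 4 of the 7 calls remained: Col4a1 (-0.77, adjusted p = 0.0333), Col1a2 (-0.73, adjusted p = 0.0241) and the 2 Col6a1 probes (-0.43 and -0.38). Markers of pancreatic acinar cells stood apart on 5 arrays by being low. Their medians were -6.64 on water replicate 2 at 1 week, and -2.39 and -0.54 on OPP replicates 1 and 2 at 1 week. OPP replicate 1 had -0.63 at 18 hours and -0.68 at 4 weeks. These arrays had less acinar signal than the rest, so leaving them out does not remove arrays with more of it. The other arrays had -0.24 to 0.29. Without those 5 arrays, Col4a1 (-0.79, adjusted p = 0.0396) and Col1a2 (-0.68, adjusted p = 0.0217) were called, and Col4a2 (-0.63, adjusted p = 0.0561) and Col3a1 (-0.61, adjusted p = 0.106) were not. These subsets were chosen after the data were seen.

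At 4 weeks against 18 hours in spleen, 14 collagen probes were called, 7 higher and 7 lower. Col1a1, Col1a2, 1 of the 2 Col3a1 probes, Col4a1 and Col4a2 were among the lower, and Col5a1, Col8a2 and Col14a1 among the higher. The other 5 type IV probes were not called. All arrays shifted between these times: the median log2 difference over the whole table was 0.12, and of all probes 38.8% were called, 36% as higher and 2.78% as lower. With each array centred on its own median, 3 collagen probes were higher and 13 lower, 10 of these 16 being among the 14, where 23.3% of all probes were called higher and 13% lower.

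Among the fibrillar chains, Col3a1 had 0.649, 0.956 and 1.09 (lowest, median and highest) at 4 weeks and 1.15, 1.29 and 1.74 at 18 hours. Its log2 difference was -0.54 (SE 0.11, adjusted p = 0.000712), with no overlap. Col1a1 had 0.848, 0.941 and 1.07 at 4 weeks and 0.996, 1.12 and 1.52 at 18 hours, a log2 difference of -0.28 (SE 0.09, adjusted p = 0.0180). That call was lost without the third water array at 18 hours (adjusted p = 0.0601) and without the arrays with hepatocyte markers (adjusted p = 0.142). Col1a2 was close to the threshold, with 0.758, 1.08 and 1.18 at 4 weeks and 0.998, 1.2 and 1.41 at 18 hours (log2 difference -0.24, SE 0.09, adjusted p = 0.0477), and it was lost in 11 of the 18 settings that leave out 1 array. Col5a1, a chain of the type V collagen that sits within type I fibrils, had 0.999, 1.31 and 1.53 at 4 weeks and 0.739, 0.812 and 1.08 at 18 hours. It rose by 0.57 (SE 0.11, adjusted p = 0.000254), 1.48-fold, and by 0.44 with centred arrays. Within drinks its difference was 0.88 in OPP spleens (adjusted p = 0.000165) and 0.25 in water spleens (adjusted p = 0.247).

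Both type IV chains were lower at 4 weeks too. Col4a1 had 1.19, 1.07 and 0.834 in OPP spleens and 0.963, 0.875 and 0.953 in water spleens at 4 weeks, a log2 difference of -0.65 from 18 hours (SE 0.11, adjusted p = 8.61e-05). Col4a2 had 1.15, 0.970 and 0.880 in OPP spleens and 1.13, 0.904 and 0.961 in water spleens, a difference of -0.55 (SE 0.12, adjusted p = 0.000791). Within OPP spleens neither was called (Col4a1 -0.38, adjusted p = 0.0858, and Col4a2 -0.36, adjusted p = 0.120). Within water spleens both were (Col4a1 -0.93, adjusted p = 0.00101, and Col4a2 -0.74, adjusted p = 0.00409). Of the 27 other collagen probes 6 were called. Col8a2, a chain of a short-chain network collagen, had 1.09, 1.33 and 1.54 at 4 weeks and 0.569, 0.911 and 1.09 at 18 hours, and rose by 0.61 (SE 0.12, adjusted p = 0.000288). Col14a1, a fibril-associated collagen, had 1.01, 1.26 and 1.41 at 4 weeks and 0.808, 0.936 and 1.12 at 18 hours, and rose by 0.39 (SE 0.08, adjusted p = 0.000640). Both were also called with centred arrays, at 0.48 and 0.26, but quantile normalisation ended the Col14a1 call (0.20, adjusted p = 0.0607). The probe of Col6a1 that had not overlapped at 1 week fell by 0.30 (SE 0.07, adjusted p = 0.00151).

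Single probes of Col11a1, Col8a1, Col2a1 and Col25a1 were higher in the uncentred values by 0.26, 0.24, 0.23 and 0.22. None of these 4 was called with centred arrays, where their differences were closer to 0. A probe of Col7a1, the chain of anchoring fibrils, was lower with a log2 difference of -0.20 (SE 0.07, adjusted p = 0.0386). The other Col7a1 probe was not called and ran from 0.998 to 1.11 at 4 weeks and from 0.852 to 1.15 at 18 hours. The correlation of the 2 probes over the spleen arrays was -0.01.

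Between 4 weeks and 1 week in spleen, 17 collagen probes were called, 13 higher and 4 lower, where 45.7% of all probes were called, 41.6% as higher and 4.03% as lower, and the median difference of all probes was 0.16. With centred arrays 4 were higher and 9 lower, 8 of them shared with the 17, where 24.6% of all probes were higher and 12.9% lower. The 4 chains higher under both were Col8a2 (0.49, SE 0.12, adjusted p = 0.00216), Col1a2 (0.45, SE 0.09, adjusted p = 0.000676), Col5a1 (0.45, SE 0.11, adjusted p = 0.00220) and Col16a1 (0.37, SE 0.07, adjusted p = 0.000245). Quantile normalisation ended the calls of Col1a2 (0.23, adjusted p = 0.164) and Col5a1 (0.18, adjusted p = 0.109). Col1a2 had 0.758, 1.08 and 1.18 at 4 weeks and 0.616, 0.712 and 0.830 at 1 week, with the 2 lowest 4 week arrays, both OPP, inside the range of 1 week.

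Of the probes called lower at 4 weeks than at 1 week, 3 were for fibrillar chains known chiefly from cartilage. A Col11a1 probe had a log2 difference of -0.34 (SE 0.09, adjusted p = 0.00390), a Col2a1 probe -0.28 (SE 0.09, adjusted p = 0.0158), and Col11a2 -0.21 (SE 0.07, adjusted p = 0.0274). The fourth, Col4a4, encodes a type IV chain best known from the kidney glomerulus and had -0.26 (SE 0.08, adjusted p = 0.0139). Col11a1 has 4 probes and Col2a1 has 2, and no other probe of either was called lower. Other probes of these 2 genes were the ones called higher at 4 weeks than at 18 hours. The type IV chains Col4a1 (0.19, adjusted p = 0.180) and Col4a2 (0.10, adjusted p = 0.524), and also Col3a1 (0.05, adjusted p = 0.753) and Col1a1 (0.01, adjusted p = 0.932), were not called. Without the 5 arrays with acinar markers apart, 8 collagen probes were called, 6 higher and 2 lower. The share of all probes in that subset is not given here, so this count is not read as a result about collagens.

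**Figure D3:**
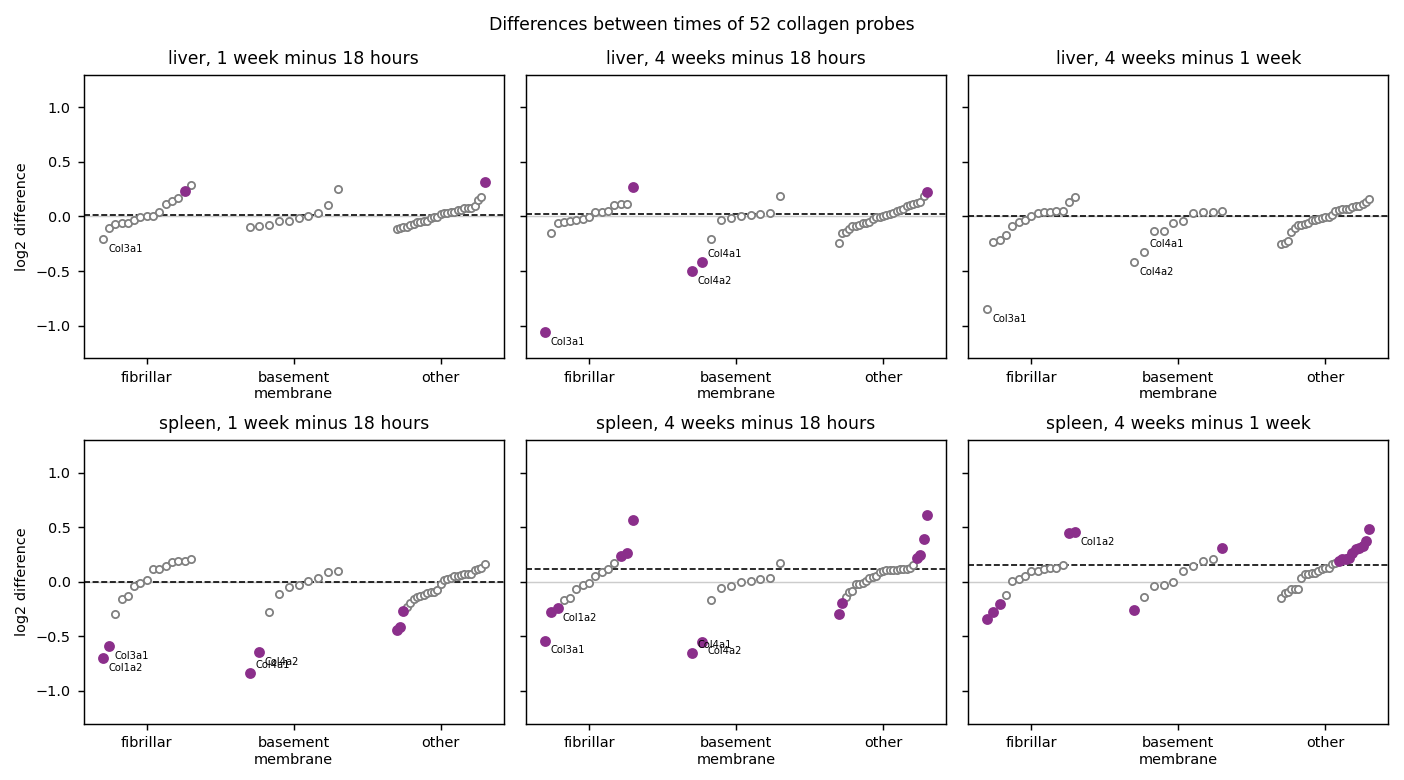
Log2 differences between times, averaged over both drinks, of the 52 collagen probes by class in liver (top) and spleen (bottom), each point 1 probe, filled where called; the dashed line is the median of all probes. Col3a1, Col4a1 and Col4a2 are the 3 lowest points of liver at 4 weeks against 18 hours, and the dashed line of spleen lies at 0.12 and 0.16 in the comparisons with 4 weeks.

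In liver at 1 week against 18 hours, 2 of 52 collagen probes were called, both higher, where 20.1% of all probes were called, 15.8% higher and 4.33% lower. Col27a1, a fibrillar chain known from cartilage, rose by 0.23 (SE 0.07, adjusted p = 0.0316), with 0.952, 1.05 and 1.14 at 1 week and 0.834, 0.908 and 0.956 at 18 hours. That call was lost in 11 of 28 alternative settings, among them centred arrays (0.21, adjusted p = 0.0531) and quantile normalisation (0.18, adjusted p = 0.317). A Col6a1 probe rose by 0.32 (SE 0.09, adjusted p = 0.0188), with 1.00, 1.12 and 1.6 at 1 week and 0.830, 0.916 and 1.11 at 18 hours. Its highest value came from the third water array at 1 week, on which skeletal muscle markers had a median log2 ratio of 5.75, and without that array the call was lost (adjusted p = 0.0507).

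The type I, III and IV chains of liver were not called between 1 week and 18 hours. Col1a1 had 0.29 (adjusted p = 0.0781), Col1a2 -0.07 (adjusted p = 0.575), Col3a1 -0.21 (adjusted p = 0.368), Col4a1 -0.09 (adjusted p = 0.446) and Col4a2 -0.08 (adjusted p = 0.666). Muscle markers also stood apart on OPP replicates 2 and 3 at 18 hours (2.39 and 3.78) and the third OPP array at 4 weeks (2.10), against -0.13 to 0.46 on the other liver arrays. Without these 4 arrays neither Col6a1 (0.18, adjusted p = 0.267) nor Col27a1 (0.23, adjusted p = 0.164) was called, and 1 other collagen probe was.

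Over the longer span, 4 weeks against 18 hours, 5 collagen probes of liver were called: Col3a1, Col4a1 and Col4a2 lower, and Col27a1 and Col9a2 higher. That is 9.62% of the 52, where 20.9% of all probes were called, 15.8% higher and 5.13% lower. Col3a1 had 1.27, 1.08 and 1.26 in OPP livers and 1.61, 1.66 and 0.995 in water livers at 18 hours. At 1 week it had 1.18, 0.876 and 0.979 in OPP livers and 1.00, 1.22 and 1.56 in water livers. At 4 weeks it had 0.673, 0.561 and 0.802 in OPP livers and 0.460, 0.631 and 0.631 in water livers. The 4 week arrays lay below all arrays of both earlier times.

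The log2 difference of Col3a1 at 4 weeks against 18 hours was -1.06 (SE 0.14, adjusted p = 1.85e-05), 2.08-fold lower and the largest of any collagen probe in either tissue in the time comparisons averaged over both drinks. Within drinks it was -0.84 in OPP livers (adjusted p = 0.00563) and -1.28 in water livers (adjusted p = 0.000323). The further Col3a1 probe had -0.03 (SE 0.06, adjusted p = 0.807), and its correlation with the first over the 18 liver arrays was 0.09. Col1a1 had 0.05 (SE 0.11, adjusted p = 0.837) and Col1a2 -0.15 (SE 0.07, adjusted p = 0.117), and neither type I chain was called.

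In the liver basement membrane, Col4a1 had 1.04, 0.982 and 1.00 in OPP livers and 1.3, 1.10 and 1.21 in water livers at 18 hours. At 1 week it had 0.965, 0.878 and 1.18 in OPP livers and 0.999, 1.02 and 1.18 in water livers. At 4 weeks it had 0.994, 0.928 and 1.04 in OPP livers and 0.720, 0.661 and 0.678 in water livers. The 3 water livers of 4 weeks stood below every other liver array, while the 3 OPP livers of 4 weeks lay among the earlier arrays.

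Averaged over both drinks Col4a1 fell by 0.42 (SE 0.07, adjusted p = 0.000252). Within drinks its difference was -0.03 in OPP livers (adjusted p = 0.915) and -0.81 in water livers (adjusted p = 4.09e-05). Col4a2 had 0.796, 0.831 and 0.987 in OPP livers and 0.790, 0.687 and 0.721 in water livers at 4 weeks. At 18 hours it had 0.936, 0.922 and 1.25 in OPP livers and 1.58, 1.18 and 1.02 in water livers. It fell by 0.50 (SE 0.10, adjusted p = 0.00103), with a difference of -0.24 in OPP livers and -0.76 in water livers (adjusted p = 0.312 in OPP livers and 0.00168 in water livers).

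The 2 chains that rose in liver changed less. Col27a1 had 0.936, 1.02 and 1.5 at 4 weeks and 0.834, 0.908 and 0.956 at 18 hours (log2 difference 0.27, SE 0.07, adjusted p = 0.0125). Col9a2, a chain of a cartilage fibril-associated collagen, had 0.959, 1.12 and 1.21 at 4 weeks and 0.856, 0.913 and 1.03 at 18 hours (0.23, SE 0.06, adjusted p = 0.0140). Quantile normalisation ended the Col27a1 call (adjusted p = 0.0925). Without the 4 arrays with muscle markers both were lost, at adjusted p = 0.112 and 0.107. Col3a1 (-1.17), Col4a1 (-0.46) and Col4a2 (-0.48) were still called. Acinar markers had a median log2 ratio of up to 4.90 on OPP liver arrays of 4 weeks. Their summed ratio per array reached 599 in that group and 575 in OPP livers of 18 hours. No subset left out liver arrays by acinar markers, and their part in these differences was not tested.

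Between 4 weeks and 1 week in liver limma called 0 collagen probes, where it called 0.0125% of all probes. At an unadjusted p under 0.05 there were 9, 8 of them lower. That count stands without the share of all probes and is not read as a result. Col3a1 had -0.85 (SE 0.14, adjusted p = 0.0519), without overlap between the times, and was called with centred arrays (adjusted p = 0.0359). Col4a1 had -0.33 (adjusted p = 0.161) and Col4a2 -0.42 (adjusted p = 0.215).

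The difference between the tissues was tested directly as the time difference in liver minus that in spleen. The test took all arrays as independent, though liver and spleen arrays may come from the same mice. For 1 week against 18 hours, 9 collagen probes differed, all with the more positive difference in liver, where 10.2% of all probes did so and 3.34% differed the other way. These were 2 probes of Col6a1 (0.76 and 0.56), Col4a1 (0.74), Col1a2 (0.63), Col1a1 (0.58), Col4a2 (0.56) and Col27a1 (0.39). The others were 1 of the 2 Col18a1 probes (0.52) and 1 of the 2 Col7a1 probes (0.31). Col1a2, for example, had a time difference of -0.07 in liver and -0.70 in spleen (adjusted p of their difference 0.000332). Col3a1 had -0.21 in liver and -0.59 in spleen, and that difference was not called (0.38, SE 0.19, adjusted p = 0.213).

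For 4 weeks against 18 hours, 8 collagen probes differed between tissues, 1 more positive and 7 more negative in liver, against 4.98% and 21.5% of all probes. With centred arrays the balance turned: 6 differed, 4 more positive and 2 more negative in liver, 3 of them among the 8, against 10.2% and 15% of all probes. Col8a2 (-0.66) and Col5a1 (-0.59), which rose in spleen, had the largest tissue differences, and both were also called with centred arrays (-0.56 and -0.50). Col3a1 had -0.52 (adjusted p = 0.0407) but was not called with centred arrays (-0.42, adjusted p = 0.103). Col16a1 (-0.35), Col14a1 (-0.33), Col8a1 (-0.32) and a Col2a1 probe (-0.28) all lost their calls both with centred arrays and after quantile normalisation. Col4a1 (0.23, adjusted p = 0.226) and Col4a2 (0.05, adjusted p = 0.869), which fell in both tissues over this span, had tissue differences that were not called.

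For 4 weeks against 1 week, 10 differed, 1 more positive and 9 more negative in liver, against 2.42% and 30.4% of all probes. Col3a1 had -0.90 (SE 0.19, adjusted p = 0.000656), the largest. Col1a2 had -0.54, Col4a2 -0.52 and Col4a1 -0.51, and a Col11a1 probe had 0.38. With centred arrays 14 differed, 7 in each direction, and 8 of these were among the 10. Of all probes 8.91% were then more positive and 18.4% more negative in liver. The centred differences of Col3a1, Col1a2 and Col4a1 were -0.78, -0.42 and -0.39, and all 3 were called, while Col4a2 was not (-0.39, adjusted p = 0.0624). After quantile normalisation Col1a2 (-0.33, adjusted p = 0.115), Col4a1 (-0.38, adjusted p = 0.0563) and Col4a2 (-0.39, adjusted p = 0.0868) were not called.

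OPP against water gave no called collagen probe in either tissue. In liver limma called 0 of 52 at 18 hours, at 1 week and at 4 weeks, where it called 0%, 0.926% and 0.0625% of all probes (at 4 weeks 0.0417% higher and 0.0208% lower). At an unadjusted p under 0.05 there were 6, 5 and 3 collagen probes. In spleen it called 0 of 52 at each time, where it called 0%, 0.00834% and 0.334% of all probes (at 4 weeks 0.0334% higher and 0.3% lower), and 10, 3 and 3 passed unadjusted. Averaged over the 3 times, 0 collagen probes were called in liver (0.346% of all probes, 0 unadjusted) and 0 in spleen (1.69% of all probes, 0.0542% higher and 1.64% lower, 8 unadjusted). The test of whether the OPP effect differed between times called 0 in liver (0.108% of all probes, 8 unadjusted) and 0 in spleen (0.00417% of all probes, 6 unadjusted). The unadjusted counts stand without the share of all probes at that level, so they do not show whether collagens differ from the rest. Depending on the setting, at most 1 collagen probe was called in liver and at most 3 in spleen in any of these tests.

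The collagen probe nearest to a call was Col4a1 in liver at 4 weeks. Its 3 OPP arrays (0.994, 0.928 and 1.04) lay above its 3 water arrays (0.720, 0.661 and 0.678) without overlap. The log2 difference was 0.52 (SE 0.10, limma adjusted p = 0.0571), 1.44-fold higher in OPP livers. The test of the OPP effect between times gave it an adjusted p of 0.0548. At 4 weeks it was called with centred arrays (adjusted p = 0.0403) and after quantile normalisation (0.70, adjusted p = 0.00261), among other settings. Leaving out 1 array of 4 weeks gave an adjusted p of 0.0806 to 0.217, and leaving out the third OPP array of 1 week gave 0.0244. Acinar markers had a median log2 ratio of up to 4.90 on OPP liver arrays of 4 weeks, and their part in this difference was not tested. At 18 hours Col4a1 had the other sign, with 1.04, 0.982 and 1.00 in OPP livers and 1.3, 1.10 and 1.21 in water livers (-0.26, SE 0.10, adjusted p = 0.598).

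Its partner Col4a2 had 0.25 (SE 0.14, adjusted p = 0.738) in liver at 4 weeks, without overlap, and -0.27 (SE 0.14, adjusted p = 0.684) at 18 hours. Col3a1 had 0.24 (SE 0.20, adjusted p = 0.860) at 4 weeks, Col1a1 0.08 and Col1a2 0.06. Col27a1 at 4 weeks had -0.30 (adjusted p = 0.421) and Col8a1 0.19 (adjusted p = 0.555). The smallest p of 18 hours belonged to Col5a2, a type V chain, with -0.20 (SE 0.08, adjusted p = 0.597), and a Col11a1 probe had 0.25 (adjusted p = 0.598). At 1 week it was Col17a1, a transmembrane collagen of epithelial junctions, with 0.28 (SE 0.08, adjusted p = 0.136), ahead of Col6a1 (-0.34, adjusted p = 0.315) and Col8a1 (-0.21, adjusted p = 0.333). Averaged over the times the smallest p belonged to Col5a2 (-0.09, adjusted p = 0.533), Col19a1 (-0.12) and Col15a1 (0.12).

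In spleen Col1a2 at 4 weeks had 1.09, 0.758 and 0.774 in OPP spleens and 1.06, 1.18 and 1.14 in water spleens. OPP replicates 2 and 3 lay below all water arrays and the first lay among them, and the log2 difference was -0.38 (SE 0.13, adjusted p = 0.299). Leaving out that first OPP array, whose acinar markers stood apart, gave -0.55 (adjusted p = 0.0346). Averaged over the 3 times Col1a2 had -0.26 (SE 0.08, adjusted p = 0.0811). Col9a2 had 0.18 (SE 0.05, adjusted p = 0.0748) on the same average, with 1.09, 1.12 and 1.01 in OPP spleens and 0.812, 0.870 and 0.935 in water spleens at 18 hours. A Col6a1 probe had -0.16 (adjusted p = 0.148).

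At 18 hours Col4a1 and Col4a2 had lower ratios on the third OPP array than on any other spleen array of that time. Col4a1 had -0.42 (SE 0.16, adjusted p = 0.429) and Col4a2 -0.37 (SE 0.17, adjusted p = 0.452), and neither was called. Col9a2 (0.31, adjusted p = 0.426), a Col11a1 probe (0.32, adjusted p = 0.429) and Col16a1 (-0.28, adjusted p = 0.429) had the smallest p. At 1 week a further Col11a1 probe (-0.34, SE 0.10, adjusted p = 0.268), Col7a1 (-0.28, adjusted p = 0.353) and Col8a1 (-0.24, adjusted p = 0.458) did. At 4 weeks, after Col1a2, they were Col19a1 (-0.33, adjusted p = 0.388) and Col5a1 (0.34, adjusted p = 0.492). Col3a1 had -0.19, -0.01 and -0.20 at 18 hours, 1 week and 4 weeks, and Col1a1 had -0.15, 0.09 and -0.11.

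**Figure D4:**
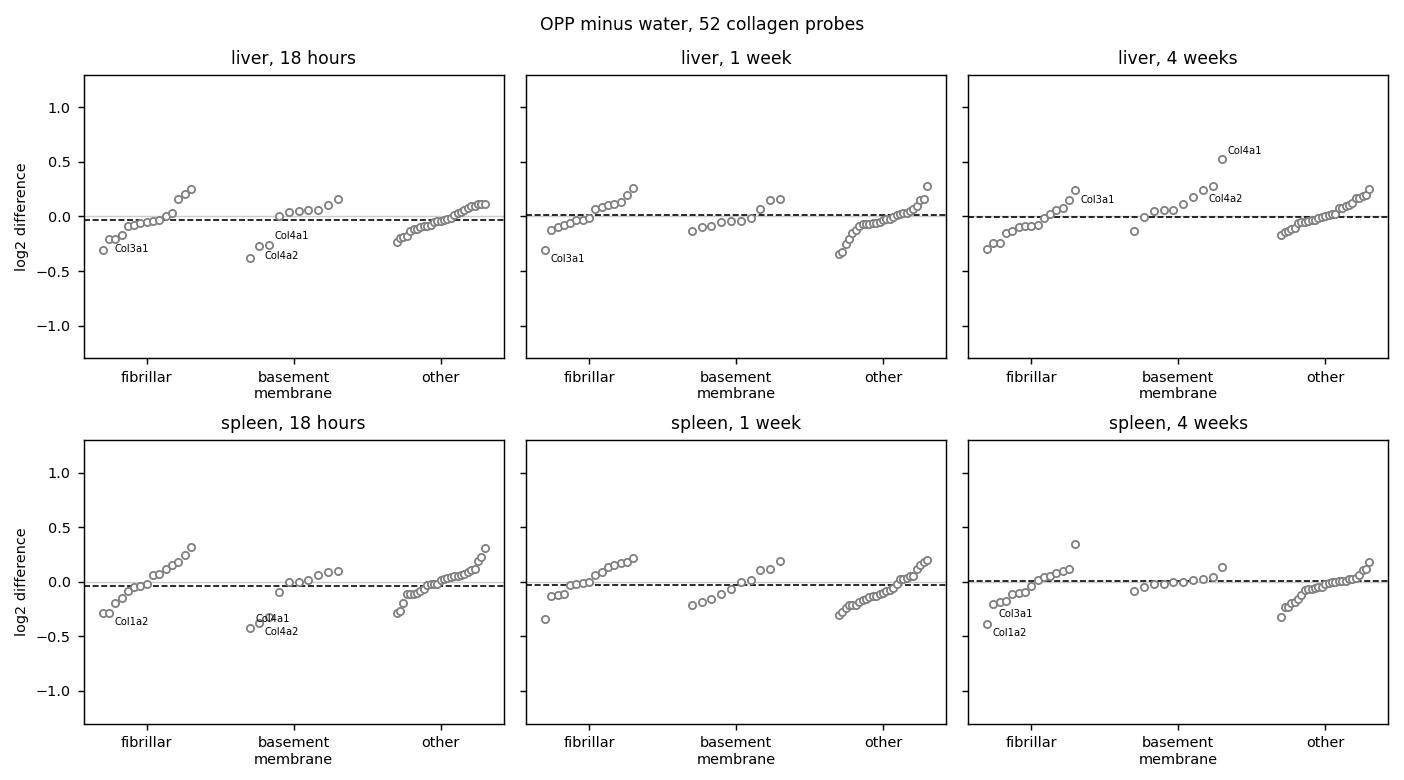
Log2 difference of OPP minus water for the 52 collagen probes by class at each time, liver top and spleen bottom; each point is 1 probe, open because none was called, and the dashed line is the median of all probes. Col4a1 in liver at 4 weeks, at 0.52, stands highest of all points.

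The chains of the head-to-head pair followed each other over the arrays. Across 18 arrays the log2 ratios of Col4a1 and Col4a2 had a Pearson correlation of 0.82 in liver and 0.95 in spleen. These are descriptions, since the 18 arrays share the times, the drinks and each array's overall brightness. The median correlation of 1300 pairs of probes of different collagen genes was -0.01 in liver and 0.04 in spleen. In liver the highest of these, 0.829, belonged to another pair. In spleen the highest, 0.95, was that of Col4a1 with Col4a2. The type I and III chains had 0.31 (Col1a1 with Col3a1), 0.69 (Col1a2 with Col3a1) and 0.27 (Col1a1 with Col1a2) in liver, and 0.85, 0.75 and 0.63 in spleen.

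Probes of 1 gene often did not follow each other. The median correlation of 26 pairs of probes of the same collagen gene was 0.05 in liver and 0.03 in spleen. The 2 Col6a1 probes that moved in spleen had 0.89 in liver and 0.80 in spleen. A call or its lack thus describes a probe, and for the 26 genes with 1 probe there is no second reading.

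**Figure D5:**
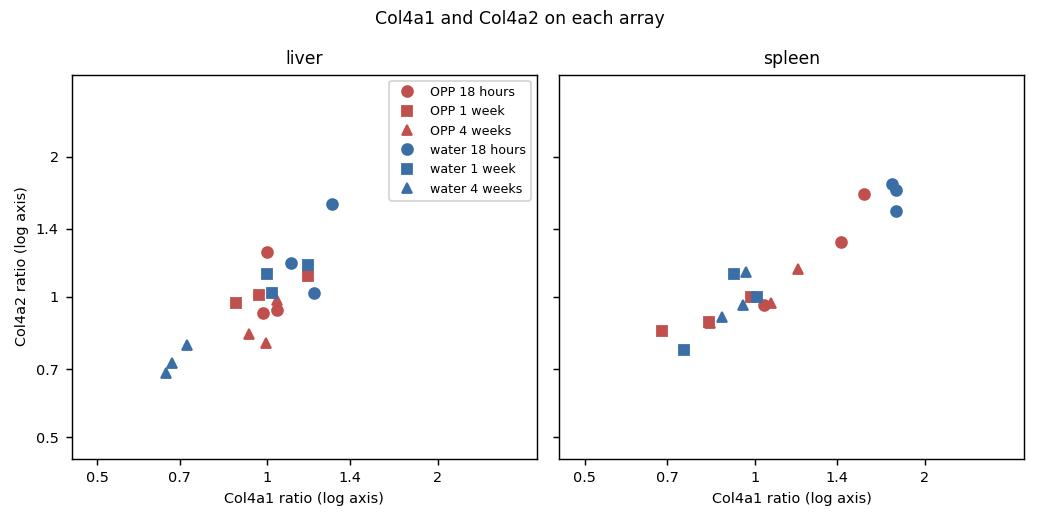
Ratio of Col4a2 against that of Col4a1 (both log axes) in liver and spleen, each point 1 of 18 arrays, colour for drink and shape for time. The points run along a line, with the 18 hour water arrays of spleen at the top and the 4 week water arrays of liver at the bottom.

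The 10 genes outside the family whose probe best followed the mean log2 ratio of the Col1a1, Col1a2 and Col3a1 probes (4 probes) over 18 arrays were, in spleen, Sparc (0.85), Hbq1a (0.84), Nid2 (0.81), Kcnc4 (0.81), Prnd (0.80), Rap2b (0.80), Nfatc4 (0.79), Fbxo16 (0.79), Akr1b8 (0.77) and Id1 (0.76). In liver they were Anxa1 (0.86), Slc38a10 (0.86), Tbx2 (0.85), Epha5 (0.81), Sgcb (0.80), Bicd2 (0.80), Ankrd13d (0.79), Aldh3b1 (0.78), Sparc (0.78) and Anxa2 (0.78). Sparc, which encodes a collagen-binding matrix glycoprotein, was in both.

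Genes that make, bind and break down collagen were counted over lists chosen by their known roles. In spleen at 1 week against 18 hours, 6 of 33 probes for collagen assembly and processing fell and none rose, where 4.17% of all probes were lower and 3.75% higher. Among them were Pcolce2 (-0.68), an enhancer of procollagen cleavage, P4hb (-0.55), a subunit of prolyl 4-hydroxylase, and Plod1 (-0.36) and Plod3 (-0.33), the lysyl hydroxylases. Of 34 probes for fibril and matrix partners 8 fell and none rose, with Postn (-0.63), Sparc (-0.61), Bgn (-0.50) and Vcan (-0.50). Of 13 for basement membrane partners 5 fell and none rose, with the nidogen Nid2 (-0.64) and the laminin chain Lamb3 (-0.36) first. Breakdown enzymes and inhibitors fell on 5 of 20 probes, with the gelatinase Mmp9 (-0.64) and the inhibitor Timp1 (-0.37). Their medians were -0.08, -0.07, -0.21 and -0.12, against 0.00 for all probes.

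Collagen receptors fell on 2 of 9 probes, the inhibitory receptor Lair1 (-0.57) and Ddr1 (-0.29). Of 23 probes for TGF-beta signalling, a pathway known to raise collagen genes, 3 fell, 2 of them for Tgfbi (-0.49 and -0.46). Fibroblast and stellate cell markers fell on 3 of 15 probes (Pdgfra -0.54, Pdgfrb -0.42, Pdpn -0.41) and rose on 1 (Reln 0.28). Endothelial markers fell on 4 of 11, among them Emcn (-0.38) and Pecam1 (-0.37). Their summed ratio per array ran from 9.36 to 9.49 in OPP spleens and 10.2 to 10.6 in water spleens at 1 week, and from 10.1 to 11.1 in OPP spleens and 10.8 to 12.1 in water spleens at 18 hours.

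Other cells of the spleen moved beside them. Erythroid markers rose on 6 of 8 probes (median 0.73) and cell cycle genes on 14 of 17 (median 0.58). The summed erythroid ratio ran from 7.49 to 8.22 in OPP spleens and 4.17 to 8.53 in water spleens at 1 week, and from 4.06 to 5.91 in OPP spleens and 4.28 to 6.00 in water spleens at 18 hours. Macrophage markers fell on 3 of 7 probes, led by Marco (-1.74). The part of these cells in the collagen differences was not tested.

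At 4 weeks against 18 hours in spleen, assembly genes had 8 higher and 0 lower of 33, but 2 higher and 3 lower with centred arrays. Of all probes 36% were higher and 2.78% lower, and 23.3% and 13% with centred arrays. P4ha1, the catalytic subunit of prolyl 4-hydroxylase, was first (0.76). Fibril partners had 8 higher and 4 lower of 34 (2 and 8 with centred arrays), with Sparc (-0.63), Dcn (0.54) and Eln (-0.50). Basement membrane partners had 0 higher and 3 lower of 13 (0 and 5 centred), with Nid2 (-0.42) and the laminin chain Lamb1 (-0.29). Fibroblast and stellate cell markers had 8 higher and 0 lower of 15 (5 and 2 centred), with Acta2 at 0.65, while erythroid markers were higher on all 8 probes (7 centred, median 1.22) and cell cycle genes on 15 of 17 (13 centred).

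At 4 weeks against 1 week in spleen, assembly genes had 15 higher and 0 lower of 33 (7 and 2 centred), fibril partners 12 and 1 of 34 (7 and 5 centred), TGF-beta signalling 13 and 0 of 23 (8 and 2 centred), fibroblast and stellate cell markers 12 and 0 of 15 (5 and 0 centred) and endothelial markers 7 and 0 of 11 (4 and 0 centred). Of all probes 41.6% were higher and 4.03% lower (24.6% and 12.9% centred), so the counts of assembly genes and fibril partners lay near or below that share. Dcn, a proteoglycan of collagen fibrils, had 0.77, Tgfbi 0.78, Cxcl12 1.01 and Pecam1 0.59. Breakdown genes had 6 higher and 0 lower of 20 (2 and 2 centred), with the inhibitors Timp2 (0.63) and Timp3 (0.57) first. Basement membrane partners had 7 and 1 of 13 (2 and 1 centred), and receptors 6 and 0 of 9 (3 and 2 centred).

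In liver at 4 weeks against 18 hours, Sparc had the largest fall of the fibril partners (-1.08, SE 0.10, adjusted p = 2.44e-07), while Ecm1 (0.71) and Dcn (0.68) rose. In that list 7 of 34 were higher and 1 lower (6 and 2 centred), near the share of all probes, 15.8% higher and 5.13% lower (14.3% and 6.68% centred). Assembly genes had 1 higher and 5 lower of 33 (0 and 5 centred), with the isomerase Ppib (-0.64), Pcolce2 (-0.63), P4hb (-0.45) and the collagen galactosyltransferase Colgalt1 (-0.39). Of 20 breakdown probes 2 were higher, Timp2 (0.33) and Mmp13 (0.26), and 1 lower, the membrane collagenase Mmp14 (-0.52). Of 13 basement membrane partners only Hspg2 was called (0.35), and of 9 receptor probes Itgb1 was higher (0.40) and Lair1 lower (-0.41).

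Fibroblast and stellate cell markers of liver had 3 higher and 0 lower of 15, Reln (1.08), Cxcl12 (0.63) and Lrat (0.26), and TGF-beta signalling 6 and 0 of 23, with Tgfbi (0.56) and Smad4 (0.53). Endothelial markers had 2 and 0 of 11, Tek (0.35) and Eng (0.28). Of all probes 15.8% were higher here, a share near those of the fibroblast and endothelial lists. The macrophage markers Marco (-3.43) and Clec4f (2.02), a marker of Kupffer cells, moved more than any collagen, and their part in the collagen differences was not tested.

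In liver at 1 week against 18 hours, the same lists had 4 higher and 5 lower of 33 for assembly, 8 and 1 of 34 for fibril partners, with Sparc (-0.53) and Dcn (0.52), and 8 and 0 of 23 for TGF-beta signalling, with Ccn2 (0.72). Fibroblast and stellate cell markers had 3 and 0 of 15, with Reln (0.99), where 15.8% of all probes were higher and 4.33% lower. Basement membrane partners had 2 higher of 13, Lamc1 (0.23) and Nid1 (0.22), and none with centred arrays. At 4 weeks against 1 week in liver no member of any of these lists was called.

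Under OPP at 4 weeks in spleen, the lists gave P4ha1 (0.64, adjusted p = 0.0307) higher and Postn (-0.66, adjusted p = 0.0434) lower. Of all probes 0.0334% were higher and 0.3% lower in that comparison. Averaged over the times in spleen, Postn (-0.35), Ecm1 (-0.21), Nid1 (-0.34), Lair1 (-0.36), Ddr1 (-0.30), Tgfb1 (-0.28), Pdgfra (-0.32) and Tek (-0.28) were lower, and no collagen probe was called beside them. Of all probes 0.0542% were higher and 1.64% lower on that average, and 0.0542% and 0.592% with centred arrays. Whether these members kept their calls with centred arrays is not given here, and they are not read as a decrease particular to matrix genes.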

How the data were processed

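Total RNA was extracted with a Qiagen RNeasy kit and labelled as biotinylated cRNA for Illumina bead arrays, per the labels' protocols. The deposited value table holds a linear ratio per probe and array, which the values show to be centred on each probe's median over the 18 arrays of its tissue; the authors' background correction and scaling are not given in the sources used here. A second, non-normalised table stayed out: none of its 72 columns of per-sample values carries a name that matches a sample's labels.

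Ratios were taken to log2 without pseudocount or filter. Each tissue was fitted with limma 3.58.1 in R 4.3.3 as 6 group means (12 residual degrees of freedom), and both tissues together for their difference (24). The p-values were adjusted by Benjamini-Hochberg over all 23982 probes and called under 0.05. The scripts were tested on simulated data. Gene symbols come from the platform annotation, in which 19344 probes have 1 symbol and 4638 have none, and all 52 collagen probes matched RefSeq's GRCm38.p6 table. No 2 arrays were identical. The number of arrays limits the precision.

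The naming rule took, per comparison, up to 8 called collagen probes by size (4 in each direction first). It also took Col1a1, Col1a2, Col3a1, Col4a1 and Col4a2 each time, and the 3 with the smallest p where none was called. Not every probe it took is given above, among others in the OPP comparisons. Up to 4 called members by size were named from other lists, with the 10 genes most correlated with the type I and III chains. The members and lists were chosen with earlier results of these data known. Alternatives were other scalings, weights, priors, probe filters, gene means, a replicate block, 1 drink only and left-out arrays. Subsets without arrays whose marker median passed 0.5 in size were added after seeing the data. They covered hepatocyte and acinar markers in spleen and muscle markers in liver, and not acinar markers in liver. Over same-numbered OPP and water arrays, the correlation of deviations from the group means was -0.18 to 0.21 in liver and -0.29 to 0.08 in spleen (9 pairs each). Between times it was -0.11 to 0.18 in OPP livers, -0.11 to 0.10 in water livers, -0.01 to 0.23 in OPP spleens (5 of 9 pairs over 0.1) and -0.16 to 0.25 in water spleens (2 of 9). Not every pair passed 0.1 in any of these, so the numbers were not taken to pair the arrays. Same-numbered liver and spleen arrays were not compared in this way. Whether they came from the same mice is not settled here, and the liver minus spleen tests took all arrays as independent.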

Additional observations from a re-analysis of the deposited data

Results flagged for a closer look

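In 27 cases over 3 time comparisons, the time difference of a collagen probe differed between liver and spleen in the direct test (limma, adjusted p under 0.05). In the order below they were 9, 8 and 10 of the 52 probes, where 13.5%, 26.5% and 32.9% of all probes were called in either direction. The list is thus not read as a tissue difference particular to collagens. Each value belongs to a single probe, also where the gene has others. For 1 week against 18 hours the log2 difference in liver minus that in spleen was 0.76 and 0.56 for the 2 Col6a1 probes, 0.74 for Col4a1, 0.63 for Col1a2, 0.58 for Col1a1, 0.56 for Col4a2, 0.52 for Col18a1, 0.39 for Col27a1 and 0.31 for Col7a1. For 4 weeks against 18 hours it was 0.33 for Col27a1, -0.66 for Col8a2, -0.59 for Col5a1, -0.52 for Col3a1, -0.35 for Col16a1, -0.33 for Col14a1, -0.32 for Col8a1 and -0.28 for Col2a1. Of these, Col3a1, Col16a1, Col14a1, Col8a1 and Col2a1 were not called with centred arrays. For 4 weeks against 1 week it was 0.38 for Col11a1, -0.90 for Col3a1, -0.71 for Col8a2, -0.62 for Col5a1, -0.56 and -0.35 for the 2 Col6a1 probes, -0.54 for Col1a2, -0.52 for Col4a2, -0.51 for Col4a1 and -0.51 for Col16a1. Of the last, Col4a2 and the Col6a1 probe with -0.35 were not called with centred arrays.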

How the results depend on the processing

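Of 4966 values of named probes under alternative settings, 4696 kept their side of the threshold, 234 lost the call and 36 gained one. Among the 4696, 102 had another sign than the main value, none of them called in either fit. The replicate number as a block gave 1 call in liver for OPP at 4 weeks and 1 for the OPP effect between times, and moved no other count by over 1.5 times. The robust prior also gave 1 and 1. Array weights gave 1 and 1, and 1 for liver 4 weeks against 1 week, 3 for spleen OPP at 4 weeks and 1 for the spleen OPP average. Centred arrays gave 1 and 1, and 1 for liver 1 week against 18 hours and 1 for liver 4 weeks against 1 week; quantile normalisation gave 1, 1, 1 and 3. The more variable probes gave 1 for liver 4 weeks against 1 week, 9 for spleen 4 weeks against 18 hours and 10 for spleen 4 weeks against 1 week. Gene means gave 1 for liver 1 week against 18 hours and 9 for spleen 4 weeks against 18 hours. These 2 settings test fewer collagens: only probes with an SD above the median, or 36 genes in place of 52 probes. Their counts cannot be set directly against those of the 52. The counts of this section stand without the share of all features in each setting.

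Water arrays alone gave 0 and 3 for liver (1 week and 4 weeks against 18 hours), 3, 8 and 4 for spleen (1 week and 4 weeks against 18 hours, 4 weeks against 1 week) and 3, 2 and 5 for liver minus spleen in the same order. OPP arrays alone gave 2 for liver and 5 for spleen at 4 weeks against 18 hours, and 2 and 3 for liver minus spleen at 4 weeks against 18 hours and 1 week. Fewer arrays enter these fits. Among the subsets added after seeing the data, leaving out the hepatocyte-marker arrays gave 4 for spleen 1 week against 18 hours and 4 for liver minus spleen at 4 weeks against 18 hours. Leaving out the arrays with low acinar markers gave 1 for spleen OPP at 4 weeks and 1 for its average. It gave 2 for spleen 1 week against 18 hours and 8 for spleen 4 weeks against 1 week. For liver minus spleen it gave 4 and 3 at 1 week and 4 weeks against 18 hours. Leaving out the muscle-marker arrays gave 1 and 3 for liver at 1 week and 4 weeks against 18 hours. Where a setting does not itself show the cause, the cause was not tested.

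Leaving out 1 array at a time gave 0 to 3 calls for liver 1 week against 18 hours. It was 0 without water 18 hours replicate 3, and 1 without water 18 hours replicate 1, OPP 18 hours replicate 2, water 1 week replicate 1 or OPP 1 week replicates 2 or 3. It gave 5 to 7 for liver 4 weeks against 18 hours, and 0 to 1 for liver 4 weeks against 1 week (1 without water 18 hours replicate 3, water 1 week replicate 1 or OPP 4 weeks replicate 3). For liver OPP at 4 weeks it gave 0 to 1 (1 without water 1 week replicate 3 or OPP 1 week replicates 2 or 3), and for the liver OPP effect between times 0 to 1 (1 without any 1 of the OPP 1 week arrays). For spleen OPP at 4 weeks it gave 0 to 1 (1 without OPP 4 weeks replicate 1), and for the spleen OPP average 0 to 1 (1 without that array or water 1 week replicate 3). The spleen time comparisons gave 6 to 8, 11 to 14 and 14 to 18. Liver minus spleen gave 7 to 9, 4 to 9 and 10 to 14. At 4 weeks against 18 hours that count was 4 without spleen OPP 4 weeks replicate 2, liver OPP 18 hours replicate 1 or liver OPP 4 weeks replicate 1. It was 5 without spleen water 18 hours replicates 2 or 3, spleen OPP 18 hours replicates 1 or 2, spleen water 4 weeks replicates 1 or 3, spleen OPP 4 weeks replicate 1, liver water 18 hours replicate 1, liver water 4 weeks replicate 1 or liver OPP 4 weeks replicate 2.

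Signal over background is not known for these ratios, so a dim probe cannot be told from a bright one that did not change.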
